A study of Mus musculus with 6 samples.

Results

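Interferon-induced genes are the genes that cells switch on when interferons bind their receptors. The 31 described here were taken by name from the deposited count table, and all 31 were found among its 25700 genes. These genes were chosen with earlier results of these data known. They cover 9 roles, from transcription factors and RNA sensors to the IFIT, OAS and guanylate-binding families. The levels come from RNA sequencing of the proximal incisor of 5-week-old C57BL/6 mice, the end at which the continuously growing tooth keeps its stem cells. Both groups carried the floxed Runx2 allele and both were given tamoxifen (1.5 mg per 10 g body weight daily for 3 days at 1 month of age). Controls were Runx2fl/fl without Cre (n = 3). Conditional knockouts (cKO) were Gli1-CreERT2;Runx2fl/fl (n = 3), in which tamoxifen activates Cre in cells that express Gli1, so that Runx2 can be lost in those cells and their descendants and stays intact in others. The series design places the collection 1 week after induction. Controls lacked Cre, so for every difference below Runx2 loss and the presence or activation of Gli1-CreERT2 cannot be told apart.

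Type I interferons bind the receptor pair Ifnar1 and Ifnar2 and activate the kinases Jak1 and Tyk2. The signal passes to the complex ISGF3, which holds Stat2 and Irf9 and binds the interferon-stimulated response element in target promoters. Type II interferon acts mainly through another element, the gamma-activated site. Several products of the pathway feed back on it: Irf7 raises interferon production, while Usp18 holds back the receptor. Many tissues hold a low tonic level of these transcripts without infection, and macrophages, endothelium and mesenchymal cells can all express them.

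The response element can be looked for in the promoters, although the genes were chosen by name and not by it. RefSeq windows (build GRCm38.p6, from 250 bases before to 50 bases after a start site) were found for 23 of the 31 genes, in 26 windows. Both strands were searched for the core of the response element, in which GAAA is followed by any 2 bases and by GAAA again, and for the gamma-activated site TTCNNNGAA. The response element stood in the window of 13 of these 23 genes (56.5%), against 3.99% of all 27025 genes with such a window. The gamma-activated site stood in 5 of 23 (21.7%), against 9.55% of all genes. Only in the Bst2 window did matches of both motifs overlap. The stretches below run 5′ to 3′ on the strand of the gene, with every response element match in capitals and up to 20 bases on either side. A match on the other strand reads as TTTC, any 2 bases and TTTC. They were chosen because they show single, paired and overlapping elements in genes to which the results return.
Isg15: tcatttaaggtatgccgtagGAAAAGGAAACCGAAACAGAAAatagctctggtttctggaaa
Ifit1: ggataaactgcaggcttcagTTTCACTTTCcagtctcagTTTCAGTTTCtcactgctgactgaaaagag
Ifit3: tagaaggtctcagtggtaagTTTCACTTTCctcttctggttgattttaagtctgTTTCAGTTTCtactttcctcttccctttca
Ifit3b: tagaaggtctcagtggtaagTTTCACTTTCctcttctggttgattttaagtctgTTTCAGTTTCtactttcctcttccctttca
Oas1a: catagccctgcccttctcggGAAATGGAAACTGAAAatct
Gbp3: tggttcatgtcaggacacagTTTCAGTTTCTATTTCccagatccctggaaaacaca
Bst2: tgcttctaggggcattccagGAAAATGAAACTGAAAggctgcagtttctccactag
Rsad2: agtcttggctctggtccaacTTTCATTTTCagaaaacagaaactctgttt

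The Isg15 stretch lies at chr4:156200855-156200916 on the minus strand and the Ifit1 stretch at chr19:34640765-34640833 on the plus strand. The stretches of Ifit3 (chr19:34583353-34583436) and Ifit3b (chr19:34607749-34607832) are letter for letter the same over 84 bases. The match nearest the start site began 66 bases before it in Isg15, 85 in Ifit1, 122 in Ifit3 and 154 in Ifit3b. In Oas1a (chr5:120907526-120907565, minus strand) it began 14 bases before the start, in Gbp3 (chr3:142559979-142560034, plus strand) 39, in Bst2 (chr8:71537567-71537622, minus strand) 124 and in Rsad2 (chr12:26456543-26456592, minus strand) 120. The genes with a window and no match in it were Cmpk2, Dtx3l, Ifi35, Ifi44, Ifit2, Irf7, Irf9, Oasl2, Trim25 and Xaf1. Ifi27l2a, Mx1, Oas2, Parp14, Parp9, Rtp4, Usp18 and Zbp1 had no entry. The 13 genes with a match had a median log2 fold change (cKO over control) of 0.32 and the 10 without one 0.24, which is given as a description only.

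Libraries held 53525185 to 66694240 estimated counts. Levels are given as CPM, a library's estimated counts scaled to a common total, on which scale 1 count was 0.0149 to 0.0186 CPM. Runx2, the targeted gene, had groups that did not overlap, at 79.7, 77.7 and 81.2 CPM in control 1 to 3, against 62.6, 54.0 and 49.0 CPM in cKO 1 to 3 (-0.53 on the log2 scale, SE 0.0892, edgeR adjusted p = 0.0714, DESeq2 adjusted p = 0.000132). Control 1 alone had male transcripts, with 4059 counts of Y-linked Ddx3y against at most 1 in the other 5 mice. Skeletal muscle markers were also high in control 1, at a summed 178 CPM against 11.4 to 14.3 CPM elsewhere. The labels name dental mesenchyme, and its 8 markers were all present, but so were the 8 of dental epithelium. The mesenchymal markers summed to 11957 to 20137 CPM in controls and 22692 to 40120 CPM in cKO mice, mostly through Col1a1 (group means 11419 and 24214 CPM). Not all 8 moved this way. Twist1 and Pdgfra overlapped between groups (log2 fold changes 0.08 and 0.04), and Runx2, also on this list, was lower. The epithelial markers summed to 61280 to 81310 CPM in controls and 23483 to 48423 CPM in cKO mice, mostly through the enamel genes Amelx, Ambn and Enam, whose groups did not overlap. The other 5 epithelial markers overlapped between groups, and Krt14 and Krt5 had log2 fold changes above 0 (0.38 and 0.15). The part of these tissues in the results below was not tested.

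Interferon-induced genes stood slightly higher in the cKO incisors, by a small amount shared over most of the set. The fitted log2 fold change was above 0 for 30 of the 31 genes, with a median of 0.32, against a median of 0.00 over the 19264 genes tested, of which 50.0% were above 0. The range ran from -0.07 (Cmpk2) to 0.71 (Mx1). In 18 of the 31, every cKO mouse was above every control, and in 0 was every cKO mouse below. Over all tested genes 11.1% had every cKO mouse above and 12.0% every cKO mouse below. All 31 passed the filter on low counts. In whole tissue, more cells of a type and more RNA per cell cannot be told apart.

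No single gene of the set passed the test over all genes. By edgeR's quasi-likelihood test 0 of 31 were called at an adjusted p under 0.05 (lowest 0.0958), where the background was 0.026% of all tested genes, or 0.0208% counting higher genes alone. At an unadjusted edgeR p under 0.05, 21 were higher and 0 lower, against 8.71% and 8.55% of all tested genes. DESeq2 called 5 of the 31, all higher (Oas2, Oas1a, Usp18, Parp9 and Rtp4), against 3.74% of the genes to which it gave an adjusted p. The count of 21 depended on single mice. It was 11 without control 2, 8 without control 3, 12 without cKO 1 and 7 without cKO 2, while it was 18 without control 1 and 24 without cKO 3. In those 6 fits 6.25% to 8.52% of all genes were higher at that p. The median log2 fold change stayed between 0.25 and 0.38 over these 6 fits.

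**Figure D1:**
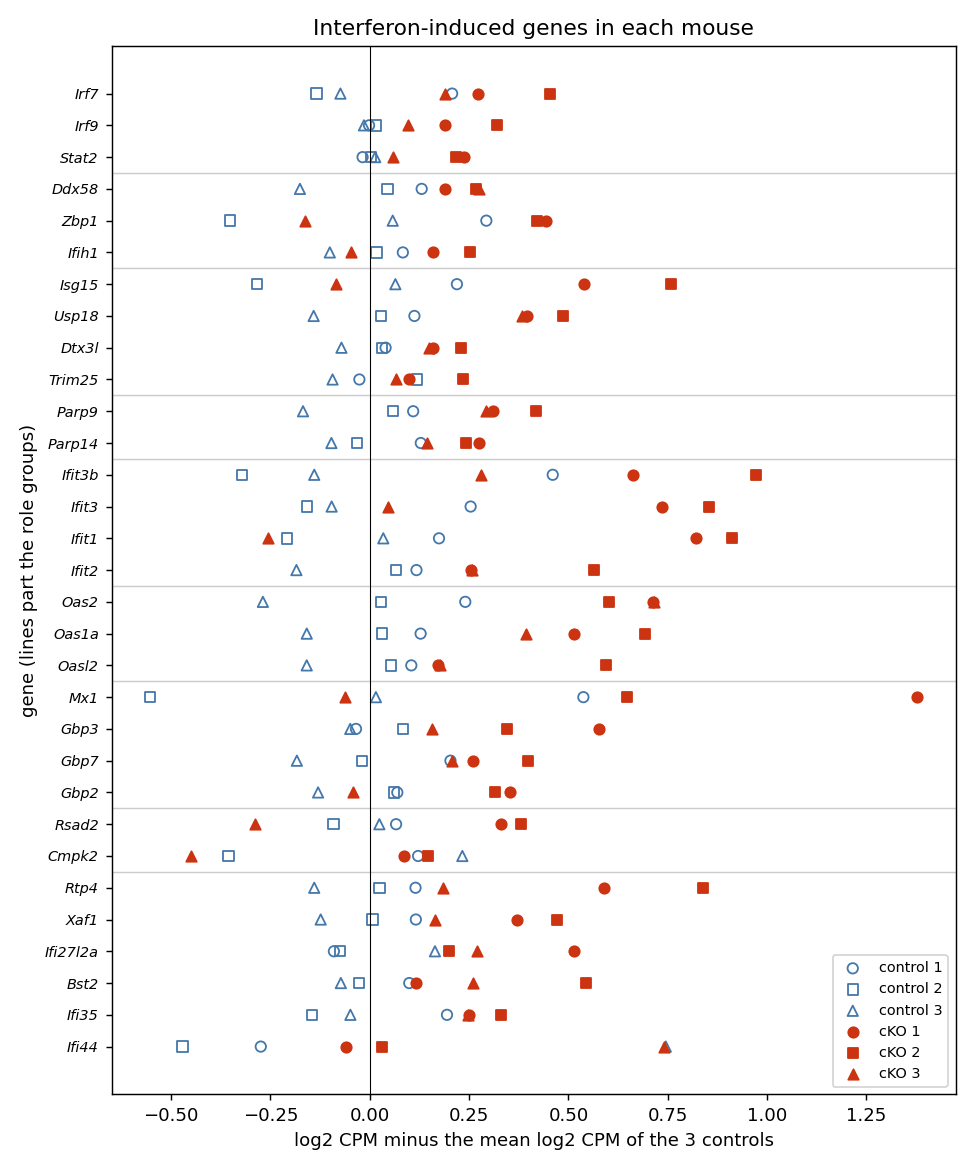
Each row is a gene and each point a mouse, placed by its log2 CPM minus the mean log2 CPM of the 3 controls (open blue, controls; filled red, cKO; circle, square and triangle, mouse 1, 2 and 3). In 18 rows all red points lie right of all blue points. In the Ifit1, Ifit3 and Ifit3b rows the red triangle of cKO 3 lies left of both cKO 1 and cKO 2, whereas in the Ifit2 row it lies beside cKO 1.

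The 3 transcription factors that carry the signal had log2 fold changes of 0.17 to 0.30, and none passed the test. Irf9, the DNA-binding part of ISGF3, measured 34.7, 35.1 and 34.4 CPM in control 1 to 3, against 39.6, 43.4 and 37.1 CPM in cKO 1 to 3. The groups did not overlap, and the log2 fold change was 0.20 (SE 0.0681, edgeR adjusted p = 0.201). Stat2, the ISGF3 subunit that activates transcription, had group means of 32.0 and 36.1 CPM with cKO 3 the lowest knockout at 33.3 CPM (0.17 on the log2 scale, SE 0.0647, edgeR adjusted p = 0.238). Irf7, which drives interferon-alpha production, had a log2 fold change of 0.30 (SE 0.116, edgeR adjusted p = 0.249), and its cKO 3 value of 14.8 CPM lay under control 1 at 15.0 CPM.

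Of the nucleic acid sensors, Ddx58 (RIG-I, a sensor of viral RNA ends) measured 31.8, 30.0 and 25.7 CPM in control 1 to 3, against 33.2, 35.0 and 35.2 CPM in cKO 1 to 3. All 3 cKO mice were above all controls, and the log2 fold change was 0.24 (SE 0.086, edgeR adjusted p = 0.225). Ifih1 (MDA5, a sensor of long double-stranded RNA) and Zbp1, which senses left-handed nucleic acid, overlapped between groups. Their log2 fold changes were 0.12 (SE 0.101) and 0.24 (SE 0.238).

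The ISG15 system, in which a ubiquitin-like protein is joined to targets and removed again, was uneven. Usp18, the enzyme that removes Isg15 and restrains the receptor, measured 5.42, 5.11 and 4.54 CPM in control 1 to 3, against 6.60, 7.02 and 6.53 CPM in cKO 1 to 3. The 3 knockouts lay close together and above every control (0.42 on the log2 scale, SE 0.111, edgeR adjusted p = 0.133, DESeq2 adjusted p = 0.0234). Isg15 itself, singled out after its values were seen, measured 7.35, 5.19 and 6.60 CPM against 9.18, 10.7 and 5.96 CPM. Here cKO 1 and cKO 2 were above every control, while cKO 3 lay inside the control range (0.43 on the log2 scale, SE 0.231, edgeR adjusted p = 0.391). The ubiquitin ligase Trim25, which activates RIG-I, had the highest CPM of its role, at 57.3, 63.4 and 54.7 CPM in control 1 to 3, against 62.5, 68.7 and 61.0 CPM in cKO 1 to 3. Its groups overlapped (0.13 on the log2 scale, SE 0.0746, edgeR adjusted p = 0.415).

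Dtx3l and Parp9 encode a ubiquitin ligase and the ADP-ribosylation partner it binds. Parp9 measured 24.9, 24.0 and 20.5 CPM in control 1 to 3, against 28.6, 30.8 and 28.2 CPM in cKO 1 to 3, a log2 fold change of 0.34 (SE 0.0865, edgeR adjusted p = 0.128, DESeq2 adjusted p = 0.029). Dtx3l measured 24.6, 24.5 and 22.8 CPM and 26.7, 28.1 and 26.5 CPM, a log2 fold change of 0.18 (SE 0.0611, edgeR adjusted p = 0.207). Parp14, a further ADP-ribosyltransferase of the same locus, measured 35.6, 31.8 and 30.4 CPM and 39.4, 38.5 and 36.0 CPM (0.22 on the log2 scale, SE 0.0753, edgeR adjusted p = 0.211). None of these 3 genes overlapped between groups, and control 3 was the lowest mouse for each. Parp14, Dtx3l and Parp9 lie within 140.0 kb of chromosome 16 (35832874 to 35972605, mm10). Dtx3l and Parp9 are transcribed from opposite strands and overlap by 682 bases, so 8.0% of the exonic bases of Dtx3l and 9.4% of those of Parp9 are shared.

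The OAS family makes 2′-5′ oligoadenylates that switch on RNA decay, and held the genes of lowest p. Oas2 measured 5.94, 5.13 and 4.17 CPM in control 1 to 3, against 8.24, 7.63 and 8.25 CPM in cKO 1 to 3. The lowest cKO value was 1.29 times the highest control value, the widest gap among the 31 genes. Its log2 fold change was 0.66 (SE 0.144, edgeR adjusted p = 0.0958, DESeq2 adjusted p = 0.0014). Oas1a measured 5.21, 4.87 and 4.27 CPM and 6.81, 7.71 and 6.26 CPM (0.53 on the log2 scale, SE 0.13, edgeR adjusted p = 0.117, DESeq2 adjusted p = 0.00931). The oligoadenylate synthetase-like gene Oasl2 was at 28.9, 27.9 and 24.1 CPM and at 30.3, 40.7 and 30.4 CPM, with cKO 2 apart from the other cKO mice (0.32 on the log2 scale, SE 0.132, edgeR adjusted p = 0.273). Of the 75-base stretches in Oas1a transcripts, 47.6% also occur in its relative Oas1g, so reads of this pair are hard to separate. Oas1g had group means of 1.62 and 2.51 CPM, also without overlap between groups.

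The IFIT family, whose products bind foreign RNA ends, had a median log2 fold change of 0.57, and its median level ran from 0.15 (cKO 3) to 0.88 (cKO 2) above the control mean on the log2 scale. Ifit2 measured 12.1, 11.7 and 9.81 CPM in control 1 to 3, against 13.3, 16.5 and 13.3 CPM in cKO 1 to 3 (0.36 on the log2 scale, SE 0.123, edgeR adjusted p = 0.207). It was the only IFIT gene without overlap between groups. Ifit3 measured 15.6, 11.7 and 12.2 CPM and 21.7, 23.6 and 13.5 CPM (0.58 on the log2 scale, SE 0.216, edgeR adjusted p = 0.241). Here cKO 3 lay within the control range while the other cKO mice stood well above it. Ifit1, named after its values were seen, showed the same split more widely, at 9.61, 7.37 and 8.72 CPM in control 1 to 3, against 15.0, 16.0 and 7.13 CPM in cKO 1 to 3. Its lowest library of all was cKO 3 (0.57 on the log2 scale, SE 0.29, edgeR adjusted p = 0.365). Ifit3b followed with group means of 4.23 and 6.52 CPM. The transcripts of Ifit3 share 41.1% of their 75-base stretches with Ifit3b, whose printed promoter stretch is the same, so their values are not independent. The 4 genes lie within 99.3 kb of chromosome 19 (34550694 to 34650009).

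Among the large GTPases, Gbp3 measured 8.17, 8.87 and 8.09 CPM in control 1 to 3, against 12.5, 10.6 and 9.34 CPM in cKO 1 to 3. The groups did not overlap (0.37 on the log2 scale, SE 0.122, edgeR adjusted p = 0.2). Gbp7 had the highest CPM of the group, at 25.0, 21.5 and 19.2 CPM and at 26.0, 28.6 and 25.1 CPM. Its lowest cKO mouse was 1.00 times its highest control, so the groups only just did not overlap (0.28 on the log2 scale, SE 0.108, edgeR adjusted p = 0.247). Guanylate-binding proteins attack membranes around intracellular microbes and respond to type II interferon as well as to type I. Gbp2, the third of this chromosome 3 cluster, overlapped between groups (0.22, SE 0.124, on the log2 scale). Mx1, a dynamin-like antiviral GTPase that C57BL/6 mice carry in a defective form, had the highest fitted fold change and a wide error. It measured 1.60, 0.752 and 1.11 CPM in control 1 to 3, against 2.87, 1.73 and 1.06 CPM in cKO 1 to 3 (0.71 on the log2 scale, SE 0.414, edgeR adjusted p = 0.429).

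The nucleotide enzymes were the role group with the lowest median log2 fold change, 0.05. Cmpk2, a mitochondrial nucleotide kinase, measured 6.26, 4.49 and 6.76 CPM in control 1 to 3, against 6.10, 6.37 and 4.21 CPM in cKO 1 to 3 (-0.07 on the log2 scale, SE 0.213, edgeR adjusted p = 0.901). It was the only gene of the 31 with a fold change below 0, and the sign turned to 0.05 without control 3 and to 0.10 without cKO 3. Its neighbour Rsad2 encodes viperin, which makes a chain-terminating nucleotide from the product of Cmpk2. Rsad2 measured 3.70, 3.32 and 3.60 CPM and 4.45, 4.61 and 2.90 CPM (0.17 on the log2 scale, SE 0.193, edgeR adjusted p = 0.703). In both genes cKO 3 was below every control. The pair is transcribed divergently from start sites 12.8 kb apart on chromosome 12.

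Of the 6 remaining effectors, 5 had every cKO mouse above every control, beside 11.1% of all tested genes, Ifi44 being the exception. None passed edgeR's test. Rtp4, a receptor-transporting protein that dampens interferon output, measured 11.4, 10.7 and 9.59 CPM in control 1 to 3, against 15.9, 18.9 and 12.0 CPM in cKO 1 to 3. All cKO mice were above all controls (0.56 on the log2 scale, SE 0.166, edgeR adjusted p = 0.165, DESeq2 adjusted p = 0.032). Bst2 (tetherin, which holds budding virus at the cell surface) measured 20.5, 18.8 and 18.2 CPM and 20.7, 27.9 and 22.9 CPM. Its cKO 1 value was 1.01 times the highest control (0.32 on the log2 scale, SE 0.116, edgeR adjusted p = 0.23). Xaf1, which counters an inhibitor of apoptosis, Ifi35 and Ifi27l2a likewise did not overlap, with log2 fold changes of 0.34, 0.27 and 0.33. The gaps were narrow, with the lowest cKO value at 1.03, 1.04 and 1.02 times the highest control value. Per kilobase of exon, Bst2 was the most abundant of the 31, at 21.2 and 26.4 CPM per kilobase in controls and cKO mice, and Mx1 the least, at 0.305 and 0.498. Ifi44, named after its values were seen, followed neither group: it measured 4.86, 4.24 and 9.85 CPM in control 1 to 3, against 5.64, 6.00 and 9.82 CPM in cKO 1 to 3. Control 3 and cKO 3 were the high libraries (0.18 on the log2 scale, SE 0.36, edgeR adjusted p = 0.842). The neighbouring Ifi44l, a gene of the wider list below that did not pass the filter on low counts, was high in the same mice. It had 0, 0 and 306 counts in control 1 to 3, against 0, 1 and 401 counts in cKO 1 to 3.

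**Figure D2:**
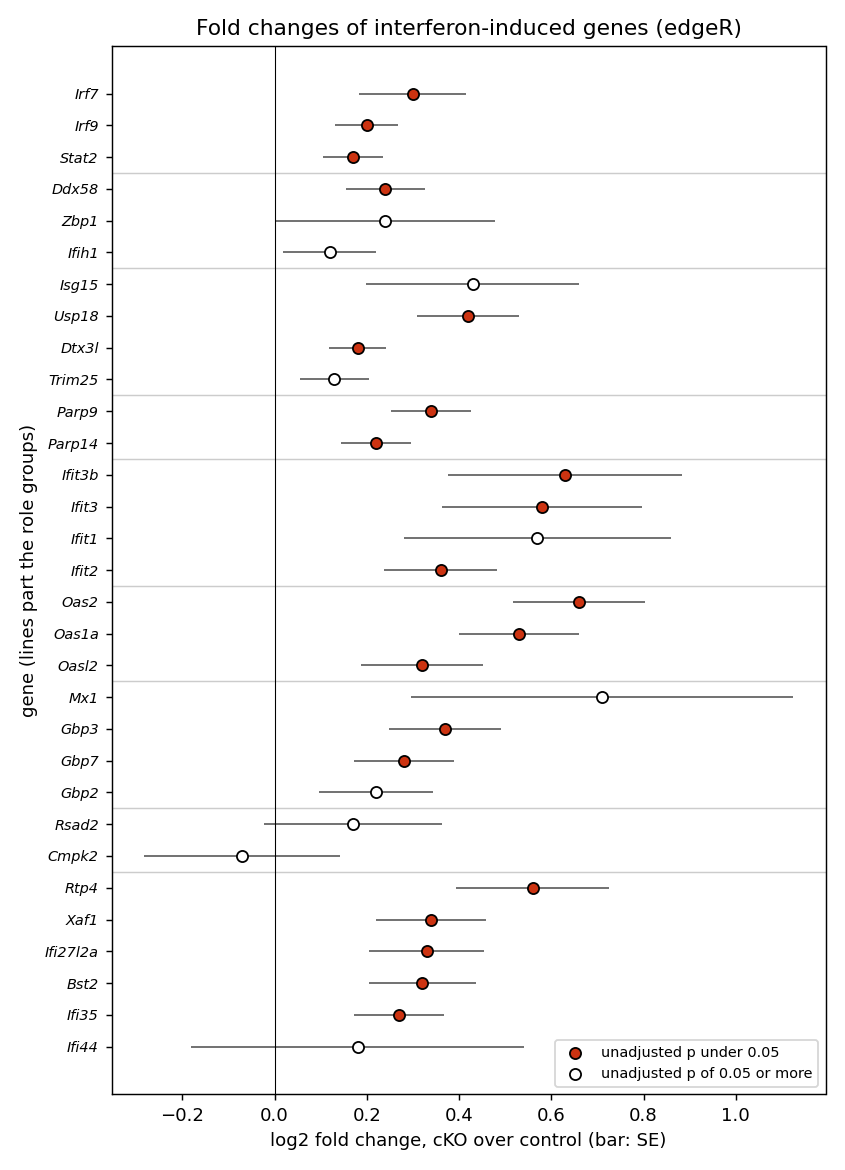
Points give the edgeR log2 fold change (cKO over control) of each gene, with bars of 1 SE. The 21 filled points have an unadjusted p under 0.05, and only Cmpk2 lies left of 0.

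The mice were not alike within groups. The median of the 31 genes, as log2 CPM relative to the control mean, was 0.12, 0.00 and -0.09 in control 1 to 3 and 0.31, 0.42 and 0.16 in cKO 1 to 3. Of the 31 genes, 20 were highest in cKO 2 and 7 in cKO 1, whereas 18 were lowest in control 3. For comparison, 13.1% and 17.7% of all tested genes were highest in cKO 2 and cKO 1, and 22.9% were lowest in control 3. Both cKO 1 and cKO 2 exceeded every control for 28 genes. By contrast, cKO 3 exceeded every control for 18 genes, lay within the control range for 10 and below it for 3. Those 13 genes, grouped here by that outcome and so with no test, were Irf7, Ifih1, Zbp1, Isg15, Trim25, Ifit1, Ifit3, Ifit3b, Gbp2, Mx1, Rsad2, Cmpk2 and Ifi44. Without cKO 3, 28 of the 31 genes had groups that did not overlap, against 15.1% of all genes in that fit.

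Markers of other cell types also differed between these libraries. All 8 macrophage markers (Adgre1, Csf1r, Cd68, Mrc1, C1qa, C1qb, C1qc, Fcgr1) had fold changes above 0, with a median log2 fold change of 0.54, and in 7 of them every cKO mouse was above every control, as in 11.1% of all tested genes. None was at 0 in these libraries. Their summed level was 502, 485 and 375 CPM in control 1 to 3, against 585, 686 and 732 CPM in cKO 1 to 3. Cd68, a lysosomal protein of macrophages, had group means of 15.0 and 22.7 CPM (edgeR adjusted p = 0.0669). The 5 endothelial markers summed to 384 to 414 CPM in controls and 467 to 493 CPM in cKO mice. Neutrophil and marrow markers (5 of 8 tested, all 5 above 0) summed to 1.34 to 2.80 CPM in controls and to 44.4, 19.8 and 2.19 CPM in cKO 1 to 3. Erythroid markers (3 of 4 tested) summed to 62.3, 83.4 and 20.9 CPM in cKO 1 to 3 and to 16.2 to 35.5 CPM in controls. Summed neutrophil, marrow and erythroid transcripts were thus high in cKO 1 and cKO 2, the mice with the higher IFIT levels. Mpo and Elane, which did not pass the filter on low counts, were highest in cKO 2, at 41 and 10 counts. In cKO 1 they had 8 and 2 counts, against up to 24 and 3 counts in controls. The macrophage sum was highest in cKO 3. Single macrophage markers differed in this, with Cd68 highest in cKO 1 and C1qb in cKO 2. Plasmacytoid dendritic cells are the classical source of interferon-alpha, and their 6 markers summed to 2.6 to 6.78 CPM in controls and 2.80 to 6.73 CPM in cKO mice. The upper ends owe much to Cox6a2, at 3.26 CPM in control 1 and 2.24 CPM in cKO 1 but 0.15 to 0.256 CPM in the other mice. Siglech measured 2.89, 2.04 and 1.81 CPM in control 1 to 3, against 3.42, 2.56 and 2.19 CPM in cKO 1 to 3. B cell markers summed to 10.5 to 15.6 and 17.6 to 18.2 CPM, and T and NK cell markers to 1.89 to 3.67 and 1.79 to 2.94 CPM. The part of these cell types in the differences was not tested.

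**Figure D3:**
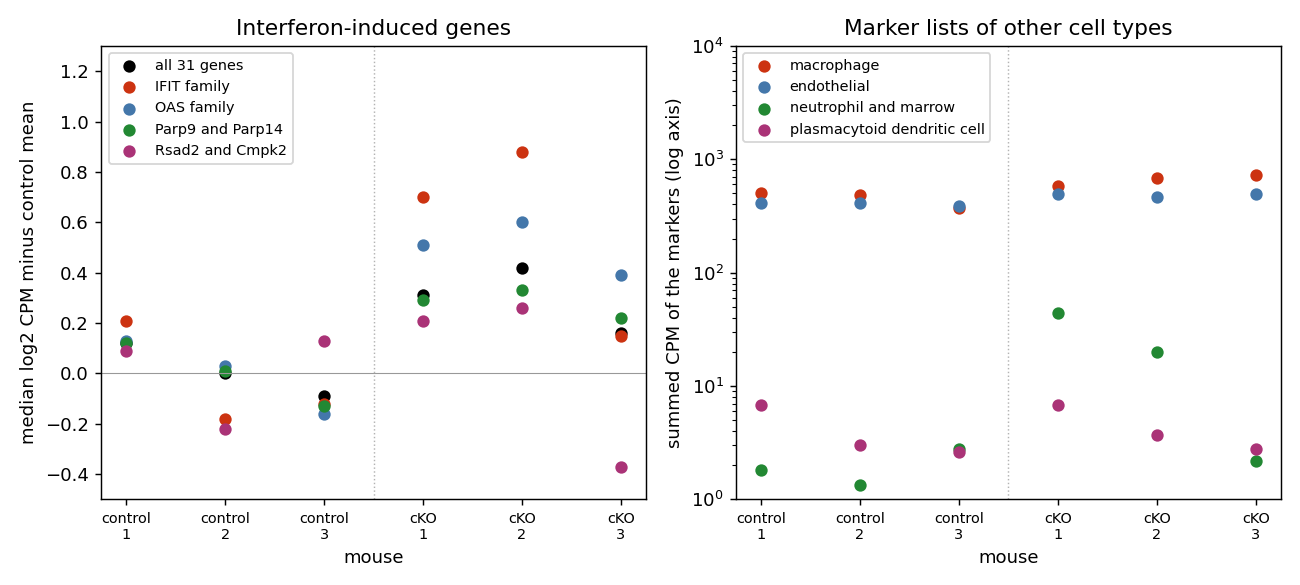
Left, the median over genes of log2 CPM minus the control mean in each mouse, for all 31 genes and for named families; right, the summed CPM of marker lists on a log axis. The IFIT median is 0.70 and 0.88 in cKO 1 and cKO 2 and 0.15 in cKO 3, and the neutrophil and marrow sum is 44.4 CPM in cKO 1 and 2.19 CPM in cKO 3.

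Genes of the interferon pathway itself had a smaller median difference, and the difference between the lists was not tested. Of 44 listed pathway genes 32 were found in the count table and 30 passed the filter, with a median log2 fold change of 0.10, 24 above 0 and 6 below. None was called by edgeR (lowest adjusted p = 0.105), and DESeq2 called 4 in either direction, beside 7.18% of the genes to which it gave an adjusted p. At an unadjusted edgeR p under 0.05, 7 were higher and 1 lower, beside 8.71% and 8.55% of all tested genes. Every cKO mouse was above every control for 9 and below for 1, beside 11.1% and 12.0%. The type I receptor chains had overlapping groups: Ifnar1 measured 87.7 and 87.3 CPM as group means (log2 fold change -0.01, SE 0.0553) and Ifnar2 36.2 and 38.6 CPM (0.09, SE 0.0618). The type II receptor chains Ifngr1 and Ifngr2 had log2 fold changes of 0.02 (SE 0.122) and 0.11 (SE 0.0632).

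The lowest p among pathway genes belonged to Irf8, Il10rb and Irf5. Irf8, a factor of the myeloid lineage, measured 8.01, 6.60 and 6.15 CPM and 9.72, 9.86 and 10.1 CPM (0.52 on the log2 scale, SE 0.117, edgeR adjusted p = 0.105). Il10rb, a receptor chain shared by interleukin-10 and interferon-lambda, had a log2 fold change of 0.25 (SE 0.059). Irf5, active in macrophages and dendritic cells, had one of 0.40 (SE 0.0958). In all 3 genes cKO 3 lay close to the other cKO mice. The listed interferon genes found in the count table, Ifnk and Ifnz, had few counts. Ifnk had 0, 6 and 2 counts in controls and 2, 2 and 1 in cKO mice, and Ifnz 16, 7 and 3 against 9, 4 and 14. Neither passed the filter. Ifnb1, Ifna1, Ifna2, Ifna4, Ifna5, Ifna11, Ifne, Ifng, Ifnl2 and Ifnl3 were listed but not found in the count table. Their levels are therefore not known.

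A wider list of 56 further interferon-induced genes, also chosen with earlier results of these data known, lay mostly above 0. Of its 54 tested genes 46 were above 0 and 8 below, with a median log2 fold change of 0.20. None was called by edgeR (lowest adjusted p = 0.0878), while DESeq2 called 11 in either direction. At an unadjusted edgeR p under 0.05, 18 were higher and 2 lower, and likewise 18 and 2 had every cKO mouse above or below every control. The shares over all tested genes are those given with the pathway genes. Tdrd7, a tudor domain protein with antiviral activity, was lower, at 74.0, 65.0 and 81.6 CPM in control 1 to 3, against 49.6, 56.8 and 45.5 CPM in cKO 1 to 3 (-0.54 on the log2 scale, SE 0.109, edgeR adjusted p = 0.0878). Iigp1, an immunity-related GTPase, measured 19.6, 17.8 and 14.8 CPM and 25.4, 24.6 and 23.9 CPM (0.50 on the log2 scale, SE 0.105, edgeR adjusted p = 0.0931). Sp100, a nuclear body protein, measured 17.7, 16.3 and 16.2 CPM and 21.1, 20.7 and 20.4 CPM (0.31 on the log2 scale, SE 0.0647, edgeR adjusted p = 0.0931).

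**Figure D4:**
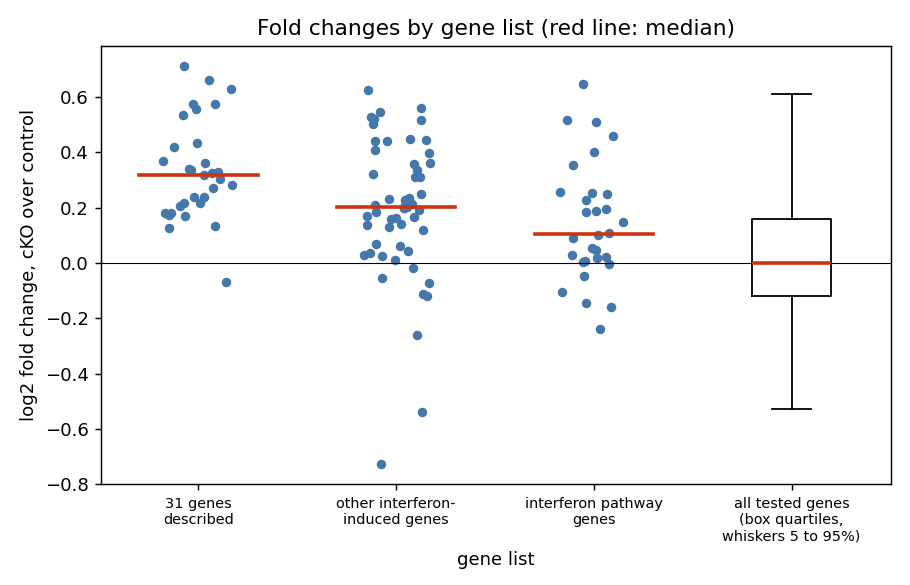
Each blue point is the log2 fold change (cKO over control) of 1 tested gene in the 31 genes, the further interferon-induced genes and the pathway genes; red lines are medians. The medians are 0.32, 0.20 and 0.10, beside 0.00 for all tested genes, whose box spans -0.12 to 0.16 and whose whiskers span -0.53 to 0.61.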

How the data were processed

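RNA from 6 mice (3 per group) was sequenced as single-end reads of 75 cycles, per the labels' protocols. Alignment tools are known from the submitters' processing notes alone, as STAR 2.6.1d and Partek with build mm10. Counting settings, strand and annotation were not given in the sources used here. Estimated counts, as deposited, are not scaled to depth, and 45.6% to 48.0% of values per library were whole (tolerance 1e-09). A second deposited table of scaled values was not used. Coordinates are those of the deposited table, with the end reduced by 1. With that change the start and end of all 31 genes match GENCODE M21, from which exon lengths and shared stretches were taken.

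Estimated counts were rounded and filtered with filterByExpr (minimum count 10, minimum total 15), leaving 19264 genes. Libraries were scaled by TMM. Genes were tested by quasi-likelihood in edgeR 4.0.16 (R 4.3.3), two-sided, with group as the sole term over the 6 libraries. P-values were adjusted by Benjamini-Hochberg across every gene tested (threshold 0.05). The SE is the absolute fold change divided by the square root of F. Alternatives were DESeq2 1.42.0, other scalings, other filters and leaving out each mouse. Replicates are separate mice by their labels, numbered in accession order, and pairs within groups differed beyond counting noise (chi-square per degree of freedom 50.4 to 81.0). The fit was tested on simulated data. It recovered 22.7% of 66 genes given a simulated log2 difference of 0.5, up or down. Recovery rose to 61.5% of 65 genes at a difference of 1 and 95.5% of 66 genes at 2, with 9 false calls. The changed genes were drawn at random from all tested genes, so these rates need not hold for the 31 genes. The median of the 31 genes, 0.32, was under the smallest difference simulated, so differences of that size could be missed. The 31 genes and all lists were chosen with earlier results of these data known. Values of every library are given for the 10 genes of lowest p and the gene of highest mean CPM in each role, and for genes named as chosen after their values were seen. Mx1, Rsad2 and Oas1g were also chosen after their values were seen. One gene outside the 31 that the naming rule covers is not reported here. Ifi44l was chosen after its values were seen.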

Additional observations from a re-analysis of the deposited data

How the results depend on the processing

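Over 11 alternatives, 332 of 341 refits of single genes among the 31 kept their direction and their side of the threshold. By DESeq2 5 genes passed (Oas1a, Oas2, Usp18, Rtp4 and Parp9), which makes its count 5 where edgeR's was 0, and 4 and 11 genes passed in the pathway list and the wider interferon-induced list. Of all genes to which DESeq2 gave an adjusted p, 3.74% were called higher and 7.18% were called in either direction. By edgeR 0 of the 31 passed under any alternative (lowest adjusted p 0.0881). Directions changed only for Cmpk2, which was 0.05 without control 3 and 0.10 without cKO 3 (from -0.23 to 0.10 over the fits without 1 mouse), and for Ifi44, which was -0.04 without control 2 and -0.12 without cKO 3 (from -0.12 to 0.65). The number at an unadjusted edgeR p under 0.05 ran from 7 to 24 when 1 mouse was left out, beside 6.25% to 8.52% of all genes. The number without overlap ran from 18 to 28. Over all genes 14.4% to 19.2% had every cKO mouse above every control in these fits, against 11.1% with all mice. The 18 without cKO 1 stood beside 19.2%. The cause was not tested, and each of these fits also had fewer mice. Other scalings and filters left both counts within 1.5 times. No paired analysis was possible because the labels mention pairs of samples without saying which samples form them, and give no replicate number shared between groups. Depth limits Mx1 and Zbp1 most, at the lowest counts of the set, and strand is not stated, so Dtx3l and Parp9 reads cannot be fully separated. Larger shares of exonic bases overlap another gene in Ifi35 (16.8%, Gm11626, opposite strand), Rtp4 (13.9%, Gm45338, same strand) and Gbp7 (11.3%, Gm43802, same strand).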

Other observations

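Ifi44 and Ifi44l were singled out after their values were seen. The lower of the Ifi44 levels in control 3 and cKO 3 was 1.64 times the highest of its levels in the other 4 mice. Among the 15123 genes that passed the filter on low counts and had a mean of at least 1 CPM, this ratio was higher only for Gm10282 (4.62) and Gm2427 (1.84). Ifi44l did not pass that filter and so is not among them. It measured 5.17 CPM in control 3 and 6.42 CPM in cKO 3, with at most 1 count in each of the other 4 mice. Both genes lie on the minus strand of chromosome 3 (mm10), Ifi44 at 151730922 to 151749960 and Ifi44l at 151758737 to 151762892.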
